A study of Mus musculus with 12 samples.

Results

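The Zfp genes are mouse genes named for zinc finger proteins, and here they were taken as all genes whose annotated symbol is Zfp followed by a number, other than Zfp42, Zfp281, Zfp365 and Zfp608. The array carried 458 probes for 285 such genes. A gene was kept where a probe had a detection p no higher than 0.01 on each of the 3 arrays in 1 or more groups, and its probe with the highest mean stood for it, which left 143 genes among 11089 features tested. RNA was measured on 12 arrays, 3 for each of 4 groups, that lay on 2 Illumina MouseWG-6 v2 BeadChips of 6 arrays each. EsrrbHi, EsrrbMed and EsrrbNeg were embryonic stem cells (ESCs) of 1 reporter line, E14Tg2a Esrrb-2a-GFPd-IBIH, in which destabilised GFP is made from the Esrrb gene. They were plated at 3000 cells per cm2 in serum with LIF, grown for 3 days, and taken by sorting from the SSEA-1 positive fraction at high, intermediate or no GFP. EpiSC were epiblast stem cells of another line, TNG Esrrb-2a-TdTomato, kept in N2B27 medium with Activin and FGF. The TNG parent is Nanog+/−, with GFP in 1 Nanog allele, so a comparison with EpiSC is also one of line, medium and Nanog allele number, and these cannot be told apart. The study's methods describe sorting for the ESC groups and name none for EpiSC, and that difference cannot be separated either. The study's legend for the arrays of sorted ESCs calls them independent experiments. How the EpiSC replicates were separated is not stated there, and p-values measure only the spread between these arrays.

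Most Zfp proteins carry C2H2 zinc fingers, in which a zinc ion holds a short fold that reads DNA. Many of them join such fingers to a KRAB domain, which recruits the corepressor KAP1 (Trim28) and, through it, the histone methyltransferase Setdb1 to silence transposable elements and imprinted loci in pluripotent cells. Others bind RNA or serve as ubiquitin or SUMO ligases, and the CCCH members of the Zfp36 group bind AU-rich mRNA and hasten its decay.

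Esrrb and the sum of naive ESC markers followed the order of the ESC labels. Esrrb read 11.73 to 12.10 on the normalised log2 scale in EsrrbHi, 11.18 to 11.32 in EsrrbMed, 5.50 to 5.80 in EsrrbNeg and 6.0 to 6.55 in EpiSC. Summed over 10 of 11 naive ESC markers, linear intensity was 14060 to 15100, 10470 to 11660, 2779 to 3143 and 1688 to 2588 in the same order. Of the 10, Klf5 alone had a higher mean in EsrrbMed (11.55) than in EsrrbHi (11.38). The highest EpiSC sum came from replicate 2, on which Klf2 read 9.42 against 7.34 and 6.65 on replicates 1 and 3. Primed epiblast markers (8 of 8 kept) summed to 5202 to 5883 in EsrrbHi, 6925 to 8118 in EsrrbMed, 11760 to 12750 in EsrrbNeg and 10520 to 11290 in EpiSC. Shared pluripotency markers (6 of 6 kept) summed to 11320 to 12050 in EsrrbHi, 11210 to 11590 in EsrrbMed, 9399 to 10220 in EsrrbNeg and 5506 to 6330 in EpiSC. The 6 fell unequally between the EsrrbHi and EpiSC means. Dppa4 went from 12.20 to 9.33 and Sox2 from 8.53 to 6.49, but Pou5f1 only from 11.29 to 10.83. Primitive streak markers (6 of 10 kept) summed to 136.5 to 356.9 in EsrrbNeg and 1039 to 1202 in EpiSC, against 141.6 to 157.1 in the other ESC groups, and all 6 were detected in EpiSC. The highest EsrrbNeg sum came from replicate 3, on which each of the 6 read higher than on replicates 1 and 2 (Fgf8 at 6.10 against 4.48 and 4.22). Fibroblast markers (5 of 10 kept) summed to 284.2 to 503.5 in ESCs and 792.2 to 950.7 in EpiSC. Most of the EpiSC sum was Vim, with a mean of 9.26 in EpiSC and 7.15 in EsrrbNeg. Of the 5, Mmp2 alone had a lower mean in EpiSC (6.54) than in EsrrbNeg (7.32). These sums move with the groups and their part in the Zfp values was not tested. In RNA from a population, fewer cells of a type and less RNA per cell cannot be told apart. Between 127 and 135 of the 143 genes were detected on each array. Chip 1 held replicates 1 and 2 of each ESC group. Chip 2 held replicate 3 of each and all EpiSC arrays.

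Of the 143 genes, 108 were detected on all 12 arrays. The other 35 were detected in full in some groups only, and 13 of these in a single group. The 10 seen in full in EpiSC alone were Zfp11, Zfp13, Zfp202, Zfp248, Zfp521, Zfp629, Zfp687, Zfp768, Zfp865 and Zfp869. Zfp324 and Zfp846 were seen in full in EsrrbHi alone, and Zfp566 in EsrrbMed alone. A gene kept through its high group had to differ from the others, so counts over these 35 describe the filter as well as the cells. The same holds for a p between a group that passed and one that did not.

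The comparisons below rest on 1 limma model with a term for chip, and a gene was called at an adjusted p of at most 0.05 with at least a 1.5-fold change (0.585 on the log2 scale). Values are normalised log2 intensities, group values are means ± SD (n = 3), and fold changes come from the model, which removes the chip difference. Within ESCs they equal the difference of the printed means. Against EpiSC, whose arrays all lie on chip 2, they depart from it by a median of 0.075 and by up to 0.318 on the log2 scale over the 143 genes. Of the 143 genes, 63 were called in at least 1 of the 6 comparisons and 80 in none. Calls in a comparison within ESCs were made for 24 genes and in a comparison with EpiSC for 58. The share of Zfp genes called was 0 to 17.5% by comparison and direction, beside 0.478% to 18.5% of all features, so the counts below are read against the share over all features in the same comparison.

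**Figure D1:**
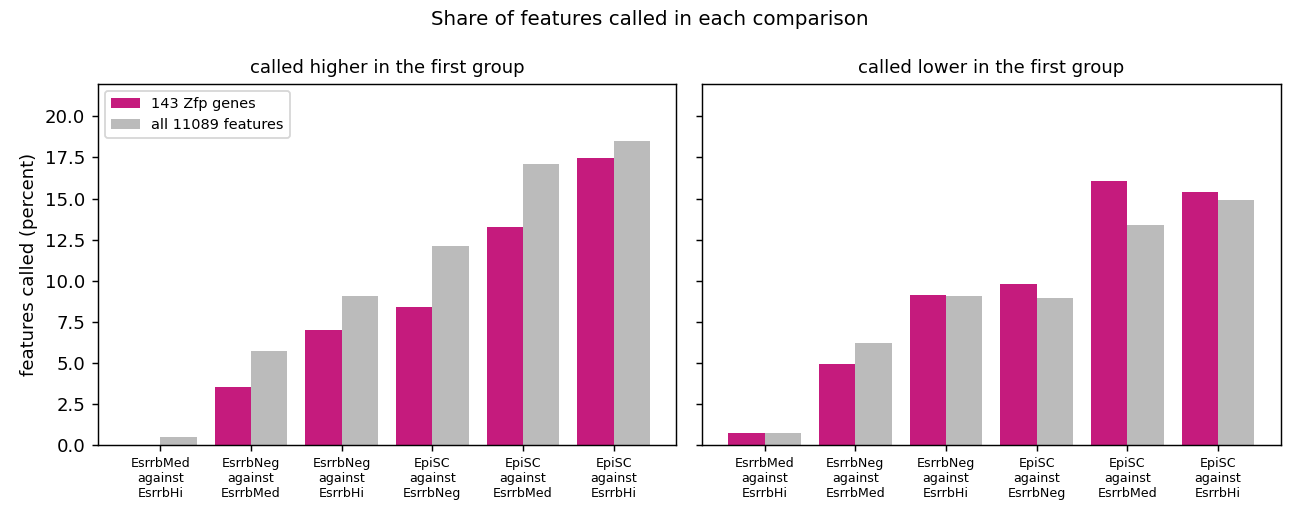
Percent of the 143 Zfp genes (magenta) and of all 11089 features (grey) called higher (left) or lower (right) in the first group of each comparison, from the limma model. The bars of the Zfp genes follow those of all features, from 0 to 0.703% between EsrrbMed and EsrrbHi up to 14.9% to 18.5% between EpiSC and EsrrbHi.

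Promoter windows are shown here for 5 genes that carry the results: Zfp296 and Zfp710, which fell with Esrrb, the adjacent pair Zfp979 and Zfp985, which fell in EpiSC, and Zfp787, which rose in EpiSC. Each window holds 300 bases around the gene start, most of them upstream, and comes from RefSeq on GRCm38.p6. Capitals mark AAGGTCA, the element that Esrrb reads in DNA, and GGGCGG, the GC box read by Sp1-type zinc fingers, both searched on both strands. The 2 motifs do not overlap. Zfp296 lies at chr7:19577037-19577336 on the + strand, Zfp710 at chr7:80024564-80024863 on the + strand, Zfp979 at chr4:147642459-147642758 on the - strand, Zfp985 at chr4:147553027-147553326 on the + strand and Zfp787 at chr7:6155916-6156215 on the - strand.
Zfp296: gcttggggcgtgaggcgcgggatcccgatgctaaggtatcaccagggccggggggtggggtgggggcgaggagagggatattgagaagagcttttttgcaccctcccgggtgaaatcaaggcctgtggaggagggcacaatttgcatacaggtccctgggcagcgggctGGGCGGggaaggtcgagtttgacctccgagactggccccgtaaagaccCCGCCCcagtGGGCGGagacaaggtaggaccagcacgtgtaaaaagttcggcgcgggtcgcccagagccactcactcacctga
Zfp710: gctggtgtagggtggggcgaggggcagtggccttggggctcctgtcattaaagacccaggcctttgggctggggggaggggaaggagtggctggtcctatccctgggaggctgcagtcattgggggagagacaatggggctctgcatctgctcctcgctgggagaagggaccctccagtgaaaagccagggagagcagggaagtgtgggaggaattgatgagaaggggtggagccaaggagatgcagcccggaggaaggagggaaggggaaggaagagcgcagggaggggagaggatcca
Zfp979: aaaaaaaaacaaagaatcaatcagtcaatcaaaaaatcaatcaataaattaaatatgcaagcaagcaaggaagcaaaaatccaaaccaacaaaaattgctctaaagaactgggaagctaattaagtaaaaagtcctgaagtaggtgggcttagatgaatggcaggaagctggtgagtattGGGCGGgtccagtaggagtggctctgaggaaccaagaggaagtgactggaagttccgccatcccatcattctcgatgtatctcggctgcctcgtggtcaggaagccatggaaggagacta
Zfp985: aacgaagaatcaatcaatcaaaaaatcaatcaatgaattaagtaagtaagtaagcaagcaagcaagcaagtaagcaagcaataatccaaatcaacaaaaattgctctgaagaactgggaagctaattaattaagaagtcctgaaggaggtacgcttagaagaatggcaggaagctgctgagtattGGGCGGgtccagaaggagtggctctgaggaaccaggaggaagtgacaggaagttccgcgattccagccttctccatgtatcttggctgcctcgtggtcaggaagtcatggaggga
Zfp787: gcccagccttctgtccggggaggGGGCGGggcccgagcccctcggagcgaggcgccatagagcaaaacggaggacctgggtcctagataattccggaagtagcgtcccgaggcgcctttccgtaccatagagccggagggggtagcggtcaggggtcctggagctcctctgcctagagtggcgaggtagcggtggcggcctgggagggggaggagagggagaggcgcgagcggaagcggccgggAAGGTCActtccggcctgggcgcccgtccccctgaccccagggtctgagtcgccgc

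The windows of Zfp979 and Zfp985 were 83.9% identical over 305 aligned columns, with an identical run of 21 bases, while the other 9 pairs among the 5 windows were 43.5 to 52.6% identical. In the RefSeq gene order no protein-coding gene lies between Zfp979 and Zfp985, which sit on opposite strands of chromosome 4 among other Zfp genes. The Zfp296 window held 3 GC boxes and 19 CG dinucleotides, and the Zfp710 window held no GC box and 4 CG dinucleotides. RefSeq windows were found for 115 of the 143 genes (139 windows, since some genes have several). AAGGTCA was present in 2.16% of these windows and in 4.72% of all 32851 windows in the table. The genes with it were Zfp414, Zfp644 and Zfp787. GGGCGG was present in 52.5% of Zfp windows and 35.7% of all windows. The Zfp windows belong to genes detected here, while all windows were taken without regard to detection. The median number of CG dinucleotides was 18 for the Zfp windows (1 a gene) and 7 for all windows. Both motif shares therefore compare unlike sets, and whether they differ for Zfp genes as such was not tested. A match describes the letters of a window and not binding.

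Between EsrrbMed and EsrrbHi, 0 Zfp genes were called higher and 1 lower, against 0.478% and 0.703% of all features in limma. An unadjusted p of at most 0.05 was reached by 23 of the 143 (16.1%), beside 16.5% of all features. The gene called was Zfp607b. Zfp607b read 5.91, 5.85 and 5.68 in EsrrbHi, 5.45, 4.89 and 5.22 in EsrrbMed, 4.24, 4.34 and 4.38 in EsrrbNeg, and 4.26, 4.16 and 4.30 in EpiSC. It was detected on every EsrrbHi and EsrrbMed array and on no EsrrbNeg or EpiSC array, and EsrrbHi did not overlap EsrrbMed. The log2 fold change of EsrrbMed against EsrrbHi was −0.63 ± 0.126 (SE, adjusted p = 0.0208), and the call was lost when EsrrbHi replicate 1 or 2 or EsrrbMed replicate 2 or 3 was left out (−0.76 to −0.46 over all arrays left out in turn), and in either chip alone (−0.71 and −0.46). Where 1 group is below detection, a fold is given as a lower bound against the higher of the dim probe and the lowest detected signal on each array. Zfp607b was at least 2.26-fold lower in EsrrbNeg than in EsrrbHi. It passed the detection filter through EsrrbHi and EsrrbMed, where it reads high, so this bound is a description without a p.

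Between EsrrbNeg and EsrrbMed, 5 Zfp genes were called higher and 7 lower, against 5.73% and 6.17% of all features, and 143 genes gave a median log2 fold change of −0.034 (0.0145 over all features). Between EsrrbNeg and EsrrbHi, 10 were called higher and 13 lower, where 9.06% of all features were called in each direction. These comparisons share the EsrrbNeg arrays. The genes with the largest falls were Zfp459, Zfp296 and Zfp710, whose calls against EsrrbHi held under all alternative settings and all arrays left out. With no background correction before quantile normalisation the split was 0 higher and 3 lower against EsrrbMed, and 1 higher and 3 lower against EsrrbHi. Median scaling and the authors' table also gave 0 and 3 against EsrrbMed, and an offset of 50 gave 1 and 4.

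Zfp296 is a C2H2 protein expressed in pluripotent cells and known as a partner of Klf4 in reprogramming. It read 9.53, 9.51 and 9.26 in EsrrbHi, 9.15, 9.02 and 8.97 in EsrrbMed, 7.73, 7.59 and 7.55 in EsrrbNeg, and 6.66, 7.23 and 6.58 in EpiSC. The 4 groups did not overlap, with EsrrbHi highest and EpiSC lowest. EsrrbNeg was 3.50-fold lower than EsrrbHi (−1.81 ± 0.141, adjusted p = 3.98e-07), with −1.86 within chip 1 and −1.71 within chip 2. EsrrbMed against EsrrbHi gave −0.39 ± 0.141 (adjusted p = 0.174). EpiSC was 5.65-fold lower than EsrrbHi (−2.50 ± 0.162, adjusted p = 4.72e-08) and −0.69 ± 0.162 on the log2 scale from EsrrbNeg (adjusted p = 0.00398). The last call was lost without EpiSC replicate 3, at −0.57.

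Zfp710 encodes a C2H2 protein. It read 9.30, 9.48 and 9.47 in EsrrbHi, 9.11, 9.21 and 9.17 in EsrrbMed, 7.75, 7.75 and 7.63 in EsrrbNeg, and 7.37, 7.46 and 7.81 in EpiSC. EsrrbNeg and EpiSC overlapped, and both lay below all EsrrbHi and EsrrbMed arrays. It was 3.27-fold lower in EsrrbNeg than in EsrrbHi (−1.71 ± 0.113, adjusted p = 1.00e-07), and EpiSC differed from EsrrbNeg by −0.16 ± 0.13 (adjusted p = 0.346).

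Zfp459, a KRAB zinc finger gene of a dense array on chromosome 13, had 18 Zfp genes among its 20 nearest protein-coding neighbours. It read 6.99, 7.18 and 7.24 in EsrrbHi, 6.74, 6.56 and 6.87 in EsrrbMed, 5.31, 5.47 and 5.12 in EsrrbNeg, and 4.43, 4.30 and 4.34 in EpiSC. No 2 groups overlapped, and no EpiSC array was above detection. EsrrbNeg was 3.58-fold lower than EsrrbHi (−1.84 ± 0.115, adjusted p = 6.13e-08). EpiSC was at least 5.53-fold lower than EsrrbHi and at least 1.55-fold lower than EsrrbNeg. Zfp459 passed the detection filter through ESC groups alone, so these bounds are a description without a p. The same probe differed by −0.42 ± 0.115 between EsrrbMed and EsrrbHi (adjusted p = 0.0715).

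**Figure D2:**
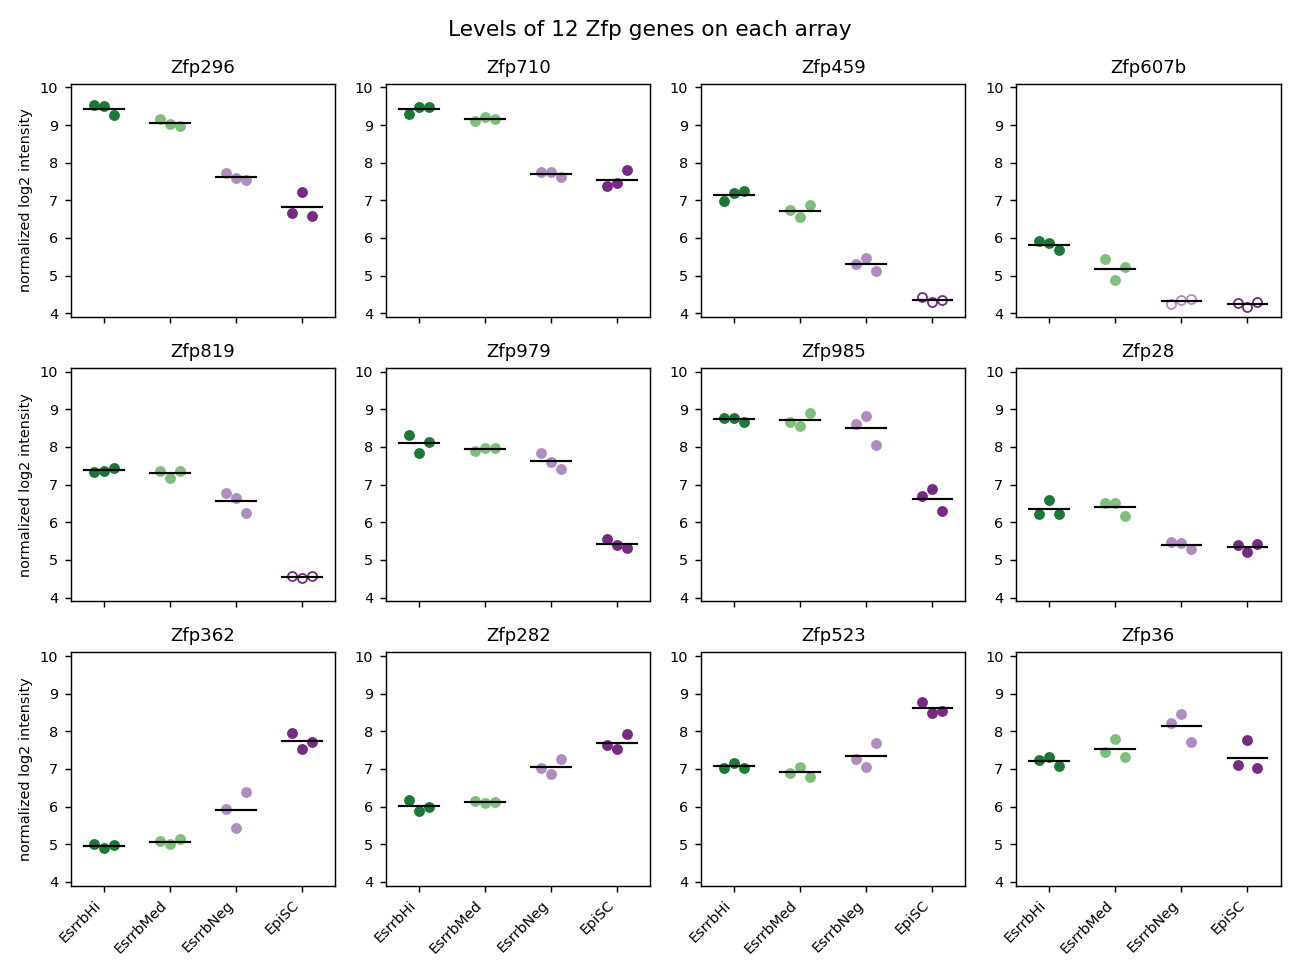
Normalised log2 intensity of 12 Zfp genes on each array, with 3 points per group (replicates 1 to 3 from left to right) and the group mean as a bar. Open circles mark groups in which no array was above detection, all other groups shown were detected on all 3 arrays. Zfp296, Zfp710, Zfp459 and Zfp607b are already lower in EsrrbNeg, Zfp979 and Zfp985 are low in EpiSC (means 5.42 and 6.63 against 7.62 and 8.50 in EsrrbNeg), and Zfp362, Zfp282 and Zfp523 are highest in EpiSC.

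Smaller falls between EsrrbHi and EsrrbNeg were called for Zfp704 (−1.16 ± 0.14), Zfp28 (−0.93 ± 0.106), Zfp819 (−0.83 ± 0.117), Zfp60, Zfp428, Zfp473, Zfp936, Zfp961 and Zfp292 (−0.61 ± 0.12), with adjusted p from 1.16e-05 to 0.00345 in limma. Zfp28 read 6.21, 6.59 and 6.23 in EsrrbHi, 6.52, 6.52 and 6.16 in EsrrbMed, 5.47, 5.46 and 5.29 in EsrrbNeg, and 5.38, 5.20 and 5.42 in EpiSC. EsrrbHi and EsrrbMed overlapped, and so did EsrrbNeg and EpiSC, with a gap between the pairs. The call of Zfp936 was lost without replicate 3 of EsrrbHi or EsrrbNeg (−0.86 to −0.42 over all arrays left out in turn) and that of Zfp961 without EsrrbHi replicate 3 (−0.75 to −0.50). The call of Zfp292 was lost without EsrrbHi replicate 2 (−0.55) or EsrrbNeg replicate 3 (−0.58). Only Zfp459, Zfp296 and Zfp710 among the falls stayed called when background correction was omitted.

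Among the 10 rises in EsrrbNeg, the largest were Zfp282, Zfp467, Zfp362 and Zfp36. Zfp282, whose human counterpart was described as a repressor that binds a retroviral long terminal repeat, read 6.17, 5.87 and 5.99 in EsrrbHi, 6.14, 6.08 and 6.12 in EsrrbMed, 7.02, 6.85 and 7.27 in EsrrbNeg, and 7.62, 7.52 and 7.93 in EpiSC. EsrrbHi and EsrrbMed overlapped, EsrrbNeg lay above both and EpiSC above EsrrbNeg. EsrrbNeg was 2.06-fold higher than EsrrbHi (1.04 ± 0.13, adjusted p = 2.11e-05), and EpiSC was 3.06-fold higher than EsrrbHi (1.61 ± 0.15, adjusted p = 8.41e-07). The EpiSC value against EsrrbNeg was 0.57 ± 0.15 (adjusted p = 0.00644), under the fold required.

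Zfp362, a C2H2 gene, read 5.01, 4.89 and 4.97 in EsrrbHi, 5.08, 5.0 and 5.13 in EsrrbMed, 5.93, 5.43 and 6.40 in EsrrbNeg, and 7.96, 7.54 and 7.72 in EpiSC. EsrrbNeg was wide, with replicate 3 highest, and lay between the other ESC groups and EpiSC with no overlap. Zfp362 was 1.95-fold higher in EsrrbNeg than in EsrrbHi (0.96 ± 0.16, adjusted p = 0.000382), with 0.73 within chip 1 and 1.43 within chip 2. EpiSC was 3.11-fold above EsrrbNeg (1.64 ± 0.19, adjusted p = 3.49e-05) and 6.05-fold above EsrrbHi (2.60 ± 0.19, adjusted p = 1.32e-07), which was the largest rise of any Zfp gene tested.

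Zfp467, known to steer the adipocyte and osteoblast fates of marrow stroma, was detected on no EsrrbHi array and on 1 EsrrbMed array, and on all EsrrbNeg and EpiSC arrays. It read 4.58, 4.38 and 4.41 in EsrrbHi, 4.53, 4.78 and 4.54 in EsrrbMed, 5.53, 5.33 and 5.43 in EsrrbNeg, and 5.39, 5.07 and 5.15 in EpiSC. EsrrbNeg was at least 1.70-fold higher than EsrrbHi. The gene passed the detection filter only through EsrrbNeg and EpiSC, where it reads high, so this bound is a description without a p. The remaining rises were Zfp326, Zfp664, Zfp623, Zfp512, Zfp275 and Zfp251, at 0.60 to 0.75 on the log2 scale. Those of Zfp251 and Zfp275 were lost without EsrrbNeg replicate 3 and replicate 2 (0.53 and 0.55), that of Zfp275 also without EsrrbHi replicate 3, and that of Zfp512 without EsrrbHi replicate 1 (0.57).

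Of 4 genes listed for the CCCH group, 2 were kept. Zfp36 (tristetraprolin) read 7.24, 7.30 and 7.09 in EsrrbHi, 7.44, 7.80 and 7.32 in EsrrbMed, 8.23, 8.47 and 7.73 in EsrrbNeg, and 7.10, 7.78 and 7.02 in EpiSC. EsrrbNeg was the highest group, though its replicate 3 overlapped EsrrbMed and EpiSC. It was 1.91-fold higher in EsrrbNeg than in EsrrbHi (0.93 ± 0.18, adjusted p = 0.000867), and the call held without any 1 array. EpiSC was lower than EsrrbNeg by −0.60 ± 0.205 (adjusted p = 0.0304), a call that was lost in 7 of the 12 fits that left out an array (−0.84 to −0.46): those without replicate 1 or 3 of EsrrbHi, EsrrbMed or EpiSC, and without EsrrbNeg replicate 2. The rise over EsrrbMed (0.62 ± 0.18) was lost without EsrrbMed replicate 1 or EsrrbNeg replicate 2. Zfp36l1, its relative with the same RNA-binding fingers, read 10.33 to 10.53 in EsrrbHi and 10.61 to 10.94 in EpiSC and was called in none of the 6 comparisons (0.35 ± 0.116 for EpiSC against EsrrbHi, adjusted p = 0.0188).

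**Figure D3:**
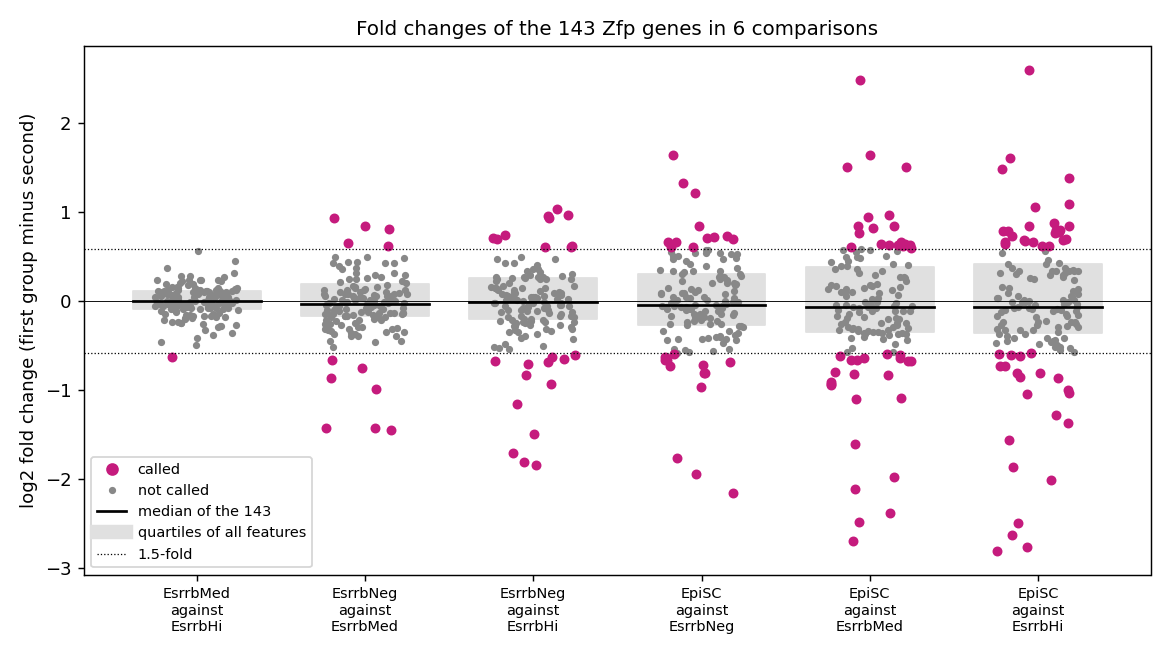
Log2 fold changes of the 143 Zfp genes in the 6 comparisons (points, spread sideways for visibility), with called genes in magenta. Black bars are the medians of the 143, grey bands the range from the lower to the upper quartile of all features and dotted lines 1.5-fold. The medians stay between −0.07 and 0.003, inside the grey bands, while Zfp362 reaches 2.60 between EpiSC and EsrrbHi. Falls to a group below detection are plotted at their fitted value, which is no bound.

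Against EsrrbHi, 25 Zfp genes were called higher and 22 lower in EpiSC, beside 18.5% and 14.9% of all features. Against EsrrbMed the counts were 19 and 23 (17.1% and 13.4% of all features), and against EsrrbNeg 12 and 14 (12.1% and 8.96%). These 3 comparisons share the EpiSC arrays. The median log2 fold change against EsrrbHi was −0.071, beside 0.00804 over all features. In the authors' log2 table, fitted by group alone, the calls against EsrrbHi were 6 higher and 8 lower, those against EsrrbMed 4 and 11, and those against EsrrbNeg 3 and 6.

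The neighbours Zfp979 and Zfp985, whose promoter windows are printed above, were among the largest falls. Zfp979 read 8.31, 7.85 and 8.13 in EsrrbHi, 7.89, 7.96 and 7.98 in EsrrbMed, 7.84, 7.60 and 7.41 in EsrrbNeg, and 5.55, 5.39 and 5.33 in EpiSC. Zfp985 read 8.78, 8.78 and 8.68 in EsrrbHi, 8.66, 8.56 and 8.91 in EsrrbMed, 8.60, 8.83 and 8.06 in EsrrbNeg, and 6.71, 6.89 and 6.29 in EpiSC. For both, EpiSC lay far below every ESC array. The ESC groups overlapped for Zfp985, while for Zfp979 EsrrbNeg lay just below the others (−0.48 ± 0.129 against EsrrbHi, adjusted p = 0.00901, under the fold required). EpiSC was 4.45-fold lower than EsrrbNeg for Zfp979 (−2.15 ± 0.15, adjusted p = 1.10e-06) and 3.40-fold lower for Zfp985 (−1.76 ± 0.21, adjusted p = 3.85e-05), and no call was made for either among ESC groups. Both genes have 12 or 13 Zfp genes among their 20 nearest protein-coding neighbours, and whether a probe of one also reads transcripts of another was not tested.

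Zfp819, a KRAB zinc finger gene reported to repress endogenous retroviral elements in pluripotent cells, read 7.33, 7.35 and 7.45 in EsrrbHi, 7.37, 7.18 and 7.36 in EsrrbMed, 6.77, 6.64 and 6.25 in EsrrbNeg, and 4.57, 4.51 and 4.57 in EpiSC. It was detected on all ESC arrays and on no EpiSC array. EpiSC was at least 6.53-fold lower than EsrrbHi and at least 3.68-fold lower than EsrrbNeg. Zfp819 passed the detection filter through ESC groups alone, so these bounds are a description without a p. Its fall from EsrrbMed to EsrrbNeg (−0.75 ± 0.117, adjusted p = 0.000314) was lost without EsrrbNeg replicate 3, at −0.57, and was −0.57 within chip 1 and −1.11 within chip 2.

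Of 7 KRAB zinc finger genes listed for known targets, 4 were kept, and 2 of these fell and 0 rose in EpiSC against EsrrbHi (14.9% and 18.5% of all features). Besides Zfp819, Zfp445, which guards genomic imprints, fell by 0.80 on the log2 scale (SE 0.15, adjusted p = 0.000395, 5.43 ± 0.11 in EpiSC and 6.01 ± 0.23 in EsrrbHi), and that call was lost with no chip term and with a replicate block in place of chip. Zfp568, which silences a placental Igf2 promoter, was lower in EpiSC than in EsrrbMed (−0.64 ± 0.16), a call lost without EsrrbMed replicate 3 or EpiSC replicate 3, with −0.08 against EsrrbHi. It was detected on 3 EsrrbMed, 2 EsrrbHi and 1 EpiSC arrays and passed the filter through EsrrbMed and EsrrbNeg only. Zfp809, which recognises the primer binding site of murine leukemia virus, was called in no comparison, with −0.29 against EsrrbHi and −0.15 against EsrrbNeg. Of 10 genes on the pluripotency-linked list 3 were kept, and besides Zfp296 neither was called in any comparison. Zfp219 and Zfp322a, the latter an activator of Pou5f1 and Nanog, gave 0.24 and 0.12 for EpiSC against EsrrbHi.

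Among the genes that rose in EpiSC, the calls of Zfp787, Zfp523, Zfp362 and Zfp282 against EsrrbHi held under all alternatives run. Zfp787 read 7.33, 7.08 and 6.94 in EsrrbHi, 6.99, 7.07 and 6.94 in EsrrbMed, 7.24, 6.92 and 7.37 in EsrrbNeg, and 8.35, 8.51 and 8.59 in EpiSC. Zfp523, the mouse counterpart of human ZNF76, read 7.02, 7.17 and 7.02 in EsrrbHi, 6.90, 7.06 and 6.78 in EsrrbMed, 7.27, 7.06 and 7.69 in EsrrbNeg, and 8.78, 8.49 and 8.55 in EpiSC. The ESC groups overlapped for Zfp787, and EpiSC lay above every ESC array for both. Zfp787 was 2.51-fold higher in EpiSC than in EsrrbNeg (1.33 ± 0.149, adjusted p = 2.91e-05) and Zfp523 2.32-fold higher (1.21 ± 0.164, adjusted p = 9.46e-05). Zfp251 and Zfp512 also kept their calls against EsrrbHi under all alternatives (1.05 ± 0.13 and 0.85).

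Several rises in EpiSC over EsrrbHi started below detection in EsrrbHi. Zfp521, a regulator of neural and blood progenitors, read 4.20 to 4.64 on the 9 ESC arrays, none above detection, and 5.30, 5.45 and 5.10 in EpiSC. It was at least 1.54-fold higher in EpiSC than in EsrrbHi, and Zfp202 and Zfp768 were at least 1.29-fold and 1.32-fold higher. These 3 genes and Zfp629 passed the detection filter through EpiSC alone, so their values are a description and no p is given. Zfp672, which passed through EsrrbNeg as well but not through EsrrbHi, was at least 1.85-fold higher in EpiSC than in EsrrbHi, again without a p.

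The other developmental regulators of a list of 15 (7 kept) varied. Zfp292, a large C2H2 protein, read 8.77, 8.97 and 8.74 in EsrrbHi, 8.76, 8.76 and 8.69 in EsrrbMed, 8.24, 8.32 and 8.09 in EsrrbNeg, and 7.87, 7.84 and 7.41 in EpiSC. EsrrbHi and EsrrbMed overlapped, with EsrrbNeg below them and EpiSC lowest, 2.04-fold below EsrrbHi (−1.03 ± 0.13, adjusted p = 2.41e-05). Zfp704 was lowest in EsrrbNeg (4.72, 4.60 and 5.03, detected on 2 of the 3 arrays) and read 6.0, 5.96 and 5.86 in EsrrbHi, 5.50, 5.42 and 5.44 in EsrrbMed and 5.45, 4.89 and 5.23 in EpiSC. EpiSC and EsrrbNeg overlapped for this gene, and EsrrbHi lay above all other arrays. Its fall from EsrrbMed to EsrrbNeg (−0.67 ± 0.14) was lost without EsrrbNeg replicate 2. Zfp148, Zfp335 (detected on 1 EpiSC array) and Zfp423, a partner of Smad and Ebf proteins, were called nowhere, at −0.09, −0.49 and −0.37 for EpiSC against EsrrbHi.

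Of 11 genes listed for roles in RNA, ubiquitin, SUMO or mitosis, 8 were kept, and 2 fell and 0 rose in EpiSC against EsrrbHi, where 14.9% of all features were called lower and 18.5% higher. Zfp106, an RNA-binding protein needed by motor neurons, read 6.03, 6.06 and 6.20 in EsrrbHi, 5.93, 6.12 and 6.16 in EsrrbMed, 6.14, 6.18 and 5.81 in EsrrbNeg, and 5.10, 5.48 and 5.09 in EpiSC, which was below all ESC arrays (−0.86 ± 0.15 against EsrrbHi, adjusted p = 0.000284). Zfp638, a nuclear RNA-binding protein that takes part in silencing unintegrated retroviral DNA, gave −0.62 ± 0.16 (adjusted p = 0.00408), a call lost without EsrrbMed replicate 3 or EpiSC replicate 2, with no chip term, with chip as a random block and with a replicate block in place of chip. Zfp326, a splicing factor of the DBIRD complex, rose in EsrrbNeg against EsrrbHi (0.75 ± 0.12, adjusted p = 0.000267). Zfp207 of the kinetochore, the ribosome collision sensor Zfp598, the SUMO ligase Zfp451 and the double-stranded RNA binder Zfp346 were called in no comparison. Zfp91, a ubiquitin ligase, was called only against EsrrbMed (−0.64), and not without EpiSC replicate 3.

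The genes chosen for the highest mean over all arrays mostly stayed within the required fold. A gene that falls in a group loses rank in that mean, so the choice itself favours stable genes. It does not show that bright probes in general were stable. Zfp296 and Zfp710 were brighter in EsrrbHi than Zfp212 and Zfp639, and both fell in EsrrbNeg and EpiSC. Zfp518b gave 9.71 ± 0.13 in EsrrbHi and 9.41 ± 0.05 in EpiSC, Zfp277 gave 9.55 ± 0.14 and 9.32 ± 0.06, and Zfp212 gave 8.94 ± 0.04 and 9.37 ± 0.13. None of the 3 was called in any comparison. Zfp639 was higher in EpiSC than in EsrrbHi (0.70 ± 0.10, adjusted p = 6.98e-05), at 9.27, 9.24 and 9.34 against 8.66, 8.65 and 8.59. Brightness of different probes does not rank transcripts.

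**Figure D4:**
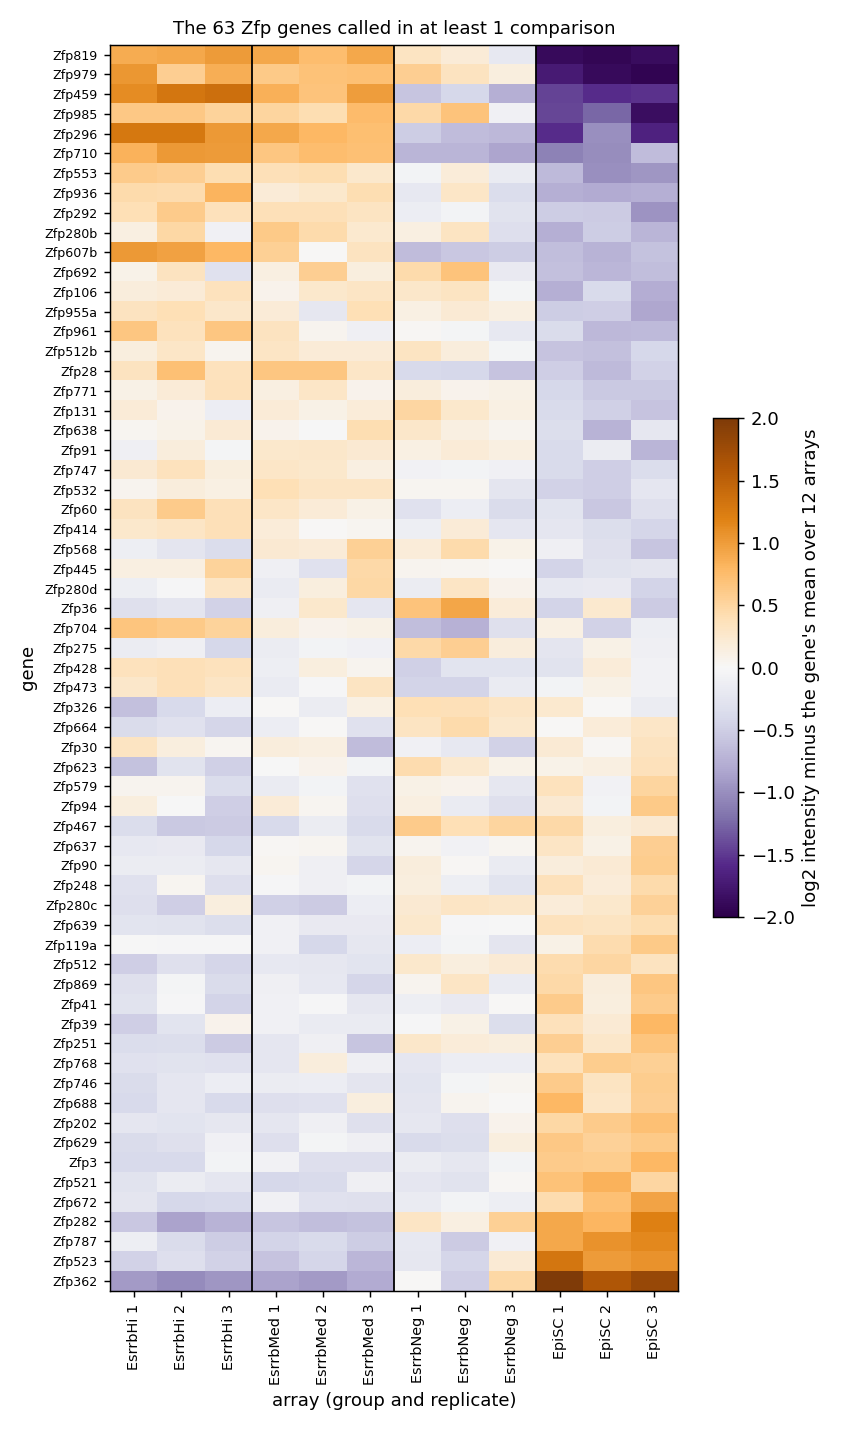
Normalised log2 intensity of the 63 Zfp genes called in at least 1 comparison, each minus its own mean over the 12 arrays, with arrays in columns by group and replicate and genes sorted by their EpiSC value. Genes at the top (Zfp819, Zfp979, Zfp459) are low in EpiSC, genes at the bottom (Zfp362, Zfp523, Zfp787) are high there, and Zfp36 is highest in EsrrbNeg.

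The machinery through which KRAB zinc fingers silence chromatin was read from a list of 25 genes, of which 17 were kept. Within ESCs, 1 of the 17 fell and 0 rose between EsrrbNeg and EsrrbHi, beside 9.06% of all features in each direction. That gene was Smarcad1, a chromatin remodeller that binds KAP1, at 9.12, 9.20 and 9.33 in EsrrbHi and 8.28, 8.45 and 8.18 in EsrrbNeg (−0.91 ± 0.123, adjusted p = 5.31e-05). In EpiSC against EsrrbHi, 10 of the 17 fell and 2 rose, beside 14.9% of all features called lower and 18.5% higher, with a median log2 fold change of −0.72 over the 17 and 0.00804 over all features. Trim28 read 12.40, 12.61 and 12.35 in EsrrbHi, 12.66, 12.59 and 12.48 in EsrrbMed, 12.24, 12.15 and 12.02 in EsrrbNeg, and 11.58, 11.38 and 11.46 in EpiSC. EpiSC lay below EsrrbNeg, and EsrrbNeg below the other ESC groups, with −0.87 ± 0.102 for EpiSC against EsrrbHi (adjusted p = 8.82e-06) and −0.32 ± 0.0883 for EsrrbNeg against EsrrbHi, under the fold required. Setdb1 (−0.72 ± 0.115), its partners Atf7ip (−1.16 ± 0.136) and Resf1 (−1.16 ± 0.174), the methyltransferases Ehmt1 (−0.97) and Ehmt2 (−1.06), the HP1 gene Cbx5 (−0.91), the histone chaperone Daxx (−0.60) and Morc3 (−0.73) also fell, as did Smarcad1 (−1.33 ± 0.142). The genes that rose were the nucleosome remodeller Chd3 (1.11 ± 0.142) and Zmym2 (0.73). Ehmt1 was detected on 2 of the 3 EpiSC arrays and Chd3 on 1 of the 3 EsrrbHi arrays. Under median scaling in place of quantiles the call of Smarcad1 between EsrrbNeg and EsrrbHi was lost, and 2 of the 17 were called lower and 1 higher in EpiSC against EsrrbHi.

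By position, 37 of the 143 genes lie on chromosome 7, and 9 of the 13 genes called lower in EsrrbNeg against EsrrbHi are among them (Zfp28, Zfp296, Zfp428, Zfp473, Zfp60, Zfp607b, Zfp710, Zfp819 and Zfp936). Of the 37, 1 was called higher. Of the 630 other named features on chromosome 7, 13.8% were called lower and 8.73% higher in this comparison, beside 9.01% and 9.85% of 7706 on other chromosomes. In EpiSC against EsrrbHi, 10 of the 37 were called lower and 5 higher. There the shares were 19% and 15.2% of the 630, and 14% and 20.2% of the 7706. Chromosome 5, with 10 Zfp genes, had 3 called higher and 0 lower in EsrrbNeg against EsrrbHi, beside 9.06% of all features in each direction. The share among other features of chromosome 5 was not computed. Counting Zfp genes among the 10 nearest protein-coding genes on each side, 60 genes had 3 or more such neighbours and 83 had fewer. In EsrrbNeg against EsrrbHi, 2 of the 60 (3.3%) were called higher and 7 (11.7%) lower. Of the 83, 8 (9.6%) were called higher and 6 (7.2%) lower, beside 9.06% of all features in each direction. In EpiSC against EsrrbHi, 11 of the 60 (18.3%) were called higher and 13 (21.7%) lower. Of the 83, 14 (16.9%) were called higher and 9 (10.8%) lower, beside 18.5% and 14.9% of all features. The differences between these counts were not tested, and the clustered genes were detected on all 12 arrays for 39 of 60 against 69 of 83.

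Promoter windows held a median of 23.5 CG dinucleotides for 18 of the 25 genes called higher in EpiSC than in EsrrbHi, 17.0 for 21 of the 22 called lower and 17.0 for 76 of the 96 not called. Their quartiles overlapped, at 18.0 to 34.0, 8.0 to 21.0 and 12.0 to 24.0 in that order. For EsrrbNeg against EsrrbHi the medians were 21.0 (higher), 19.0 (lower) and 17.0 (not called). These differences were not tested. For 35 genes more than 1 probe was kept. Of 16 such genes called between EpiSC and EsrrbHi, the other probes had the same sign in all 16 and were called the same way in 10. Between EpiSC and EsrrbMed these were 13 and 8 of 14 genes, and between EpiSC and EsrrbNeg 8 and 4 of 8. Between EsrrbNeg and EsrrbHi they were 8 and 7 of 8, and between EsrrbNeg and EsrrbMed 3 and 3 of 3. No other probe was called in the opposite direction in any of the 6 comparisons.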

How the data were processed

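Total RNA (100 ng) from 12 samples was labelled and hybridised to Illumina MouseWG-6 v2 arrays, 6 to a chip. The deposited intensity values are the authors' bead summaries on a linear scale, neither background corrected nor normalised, and the deposited detection p-value columns give for each probe the probability that its signal is background. The deposited log2 table holds the authors' quantile-normalised, ComBat-corrected values and served as an alternative. Tool versions of the authors' steps are not given in the sources used here.

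Intensities were background corrected from the detection p and quantile normalised with neqc (offset 16) in limma 3.58.1 under R 4.3.3. Of 45281 probes, 14834 were detected at p of at most 0.01 on all 3 arrays of a group, and 11089 features remained after taking the probe with the highest mean for each gene. Of all probes, 32093 had 1 gene symbol in the platform annotation, 16 had several and 13172 had none. A model with a coefficient per group and a chip term over all 12 arrays (7 residual and 6.08 prior degrees of freedom) gave moderated tests with Benjamini-Hochberg adjustment over all 11089 features. After the fit, the model was also run on data simulated from its own estimates. The simulated noise was independent between arrays, so that run does not cover arrays that deviate together. Replicate arrays correlated at 0.9861 to 0.9951. The number of arrays limits the precision of each value.

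Same-numbered arrays of different ESC groups deviated together (r = 0.238 to 0.555 in 9 pairs, −0.462 to 0.227 in 18 other pairs). The pairing is read from the data, since the labels do not state it, and replicate 3 is also chip 2. The genes named are, per comparison, up to 10 called rises and 10 called falls by size, kept members of role lists, called members of the KAP1 list and the 5 with the highest mean. Other genes named, among them Zfp936 and Zfp961 in EsrrbNeg against EsrrbHi, Zfp629, the genes detected in 1 group only and those with an AAGGTCA match, were chosen after their values were seen. The members and lists were chosen with earlier results of these data known. Chromosomes, gene order and promoters came from RefSeq (GRCm38.p6), and figures were drawn with matplotlib 3.10.9.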

Additional observations from a re-analysis of the deposited data

How the results depend on the processing

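No called Zfp gene changed direction under any alternative run, but the number of calls depended on the scale. Main counts were 1 (EsrrbMed against EsrrbHi), 12 (EsrrbNeg against EsrrbMed), 23 (EsrrbNeg against EsrrbHi), 26 (EpiSC against EsrrbNeg), 42 (EpiSC against EsrrbMed) and 47 (EpiSC against EsrrbHi). In that order, quantile normalisation with no background correction gave 0, 3, 4, 6, 12 and 16 calls, median scaling in place of quantiles 0, 3, 9, 6, 14 and 20, a background offset of 50 gave 0, 5, 13, 7, 16 and 19, and the deposited log2 values gave 0, 3, 5, 9, 15 and 14. Values without background correction or with a larger offset have smaller fold changes by construction, and the other causes were not tested. Under median scaling the median of all features moved by 0.181, 0.148 and 0.196 on the log2 scale in the EpiSC comparisons with EsrrbNeg, EsrrbMed and EsrrbHi. Without a minimum fold the counts were 2, 40, 51, 68, 80 and 79. Members detected on all 12 arrays gave 0, 7, 15 and 17 calls in the first 4 comparisons and 31 in the last, with fewer genes counted.

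Chip 1 alone gave 0 calls between EsrrbMed and EsrrbHi, and so did chip 2 alone and no filter on dim probes. Chip 2 alone has 1 array per ESC group and takes its spread from the EpiSC arrays alone, assuming that ESC arrays vary alike. It gave 11 calls between EsrrbNeg and EsrrbHi and 14 between EpiSC and EsrrbNeg. Leaving out each array in turn gave 0 to 1, 9 to 14, 21 to 24, 25 to 38, 34 to 46 and 41 to 49 calls. The 38 calls came without EsrrbNeg replicate 3. The replicate block among ESC arrays gave 1, 12 and 23 calls and changed no call of a Zfp gene, and a replicate block in place of chip over all arrays gave 28, 42 and 46 calls in the EpiSC comparisons, of which 22, 36 and 40 were among the main calls, so that 4, 6 and 7 were lost. No chip term gave the same counts. Across all alternatives 2 calls held between EsrrbNeg and EsrrbMed, 3 between EsrrbNeg and EsrrbHi, and 6, 10 and 13 in the EpiSC comparisons.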
